A study of Mus musculus with 24 samples.

Results

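The comparison described here set spermatocytes of Ago413-/- males against spermatocytes of Ago413+/- males. Its members were 6 of the 24 bulk RNA-seq libraries in the table, 3 null and 3 heterozygous, chosen by genotype and cell fraction as the labels give them. One more heterozygous spermatocyte library, which the labels call an outlier, was left out. Genes were examined when at least 3 of the 6 libraries held at least 10 counts, which kept 18762 of 55536 genes.

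The Ago413 line carries an engineered loss of chromosome 4 sequence that takes out all of Ago1, together with the adjoining ends of Ago3 (break in exon 6) and Ago4 (break in exon 15). The line came from 129 embryonic stem cells targeted with MICER vectors. A cross to Cre deleter mice of mixed C57BL/6 and Swiss Webster stock removed the targeted region, and the line was backcrossed to C57BL/6J. Males of 10 to 15 weeks were used, and testes of 2 to 5 males of one genotype were pooled for each preparation. Pachytene/diplotene spermatocytes were enriched by sedimentation, with a purity above 70%. Both groups thus carry the deletion on at least 1 chromosome, and each library represents several pooled animals. Nothing in the labels says that pools were separate breeding groups, so p-values measure the spread between these pools.

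Argonaute proteins bind small RNAs and guide them to complementary transcripts, where they lower translation or transcript stability. In male germ cells some of them are also found in the nucleus. During pachynema the unsynapsed X and Y chromosomes are packed into the sex body and transcriptionally silenced, a process called meiotic sex chromosome inactivation, and spermatocytes that fail in it are usually lost. The comparison asks which transcripts differ when the second intact copy of the locus is lost as well.

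Before any gene is described, 1 library must be set apart. Heterozygous replicate 3 correlated with the other heterozygous libraries at r = 0.935 and 0.952 (across genes, on log2 CPM, which are counts scaled to a common library total), whereas those libraries correlated with each other at r = 0.988. It held the highest or the lowest of the 6 values for 62.3% of genes. The same share was between 17.3% and 38.0% in the other 5 libraries. The 79 cytosolic ribosomal protein genes, which encode the protein part of the translation machinery, summed to 23995 CPM in it and to between 10778 and 12778 CPM in the other libraries. Short transcripts were also higher in it relative to long ones. The mean log2 CPM of genes in the lowest length quartile minus that of genes in the highest was -0.93 there and between -2.02 and -1.52 elsewhere. These checks were chosen after the library was seen to stand apart, and the results that it moves most are given with and without it. Total counts ranged from 18691082 to 22968261.

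With the quasi-likelihood test of edgeR, 0 of the 18762 genes (0%) passed an adjusted p-value of 0.05 with a log2 fold change beyond 0.5. An unadjusted p-value under 0.05 was reached by 546 genes (2.91%), 208 higher in the null (1.11%) and 338 lower (1.8%). The same edgeR fit with 3 genotypes called 1 gene (0.00533%), Ago1. DESeq2 called 3 genes on the same rule (0.016%), Ago1, Guca2b and Ttc22, all lower in the null and all on chromosome 4. Null and heterozygous libraries did not overlap for 1612 genes (8.59%), 743 higher in the null (3.96%) and 869 lower (4.63%). The median absolute log2 fold change was 0.22, and the median standard error of a log2 fold change was 0.32. Without heterozygous replicate 3, edgeR again called 0 genes, but 2318 genes (12.5%) had an unadjusted p-value under 0.05, and 379 of these were among the 546. Of all genes in that fit, 3.41% were higher and 9.1% lower at that mark, and 47.8% were higher at any size. The balance of directions depended on the scaling. Under upper-quartile scaling in place of TMM, the 0.05 mark was passed by 293 higher and 211 lower genes, and the share of all genes that were higher went from 42.4% to 48.1%.

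**Figure D1:**
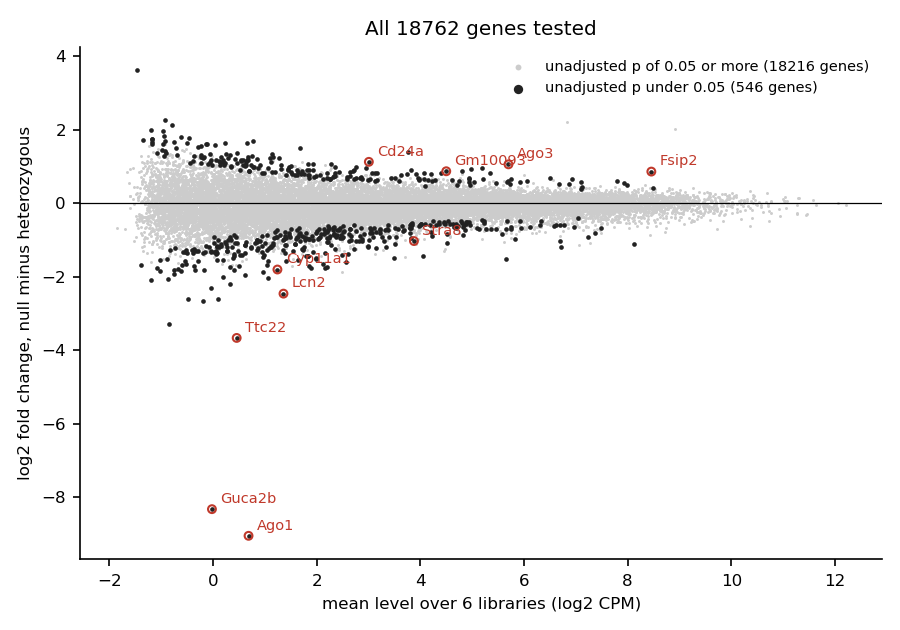
Each point is 1 of 18762 genes, with its mean level over the 6 libraries (log2 CPM) on the horizontal axis and its log2 fold change, null minus heterozygous, on the vertical axis. Black points are the 546 genes with an unadjusted edgeR p-value under 0.05, circled points are named in the text, and most genes lie close to 0 while Ago1 and Guca2b, with 0 counts in the null, lie far below.

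The targeted genes were examined first. Ago1 (ENSMUSG00000041530, chromosome 4, 126435012 to 126468583, minus strand), the Argonaute that the deletion removes entirely, had 0 counts in each null library. The heterozygous libraries held 83, 86 and 32 counts of it, or 3.55, 4.26 and 1.84 CPM. The groups did not overlap, and the null was at least 21.1-fold lower, taking 3 counts in the null library where they weigh most as the upper limit of a count of 0. Its edgeR adjusted p-value was 0.222 in the fit of these 6 libraries and 0.00259 when the 4 wild-type libraries shared the estimate of the spread, and its DESeq2 adjusted p-value was 5.75e-07. The Ago1 counts went against none of the 6 genotype labels.

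Ago3 (ENSMUSG00000028842, chromosome 4, 126331704 to 126429556, minus strand), which keeps part of its exons, was not lower in the null. Its levels were 41.1, 93.2 and 76.6 CPM in null libraries. They were 41.7, 46.4 and 13.3 CPM in heterozygous libraries, so null replicate 1 lay within the heterozygous range and the lowest value was that of heterozygous replicate 3. The log2 fold change was 1.05 (95% interval 0.07 to 2.04, edgeR adjusted p = 0.992) and 0.67 without heterozygous replicate 3. Wild-type spermatocytes, brought in only as a reference and scaled together with the other 2 genotypes, held 7.48 ± 2.90 CPM (SD, n = 4). The exons that gave these reads are not known from gene counts, and Ago3 transcripts share 0.845% of their 31-base words with Ago1.

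Ago4 (ENSMUSG00000042500, chromosome 4, 126489541 to 126533472, minus strand), also cut by the deletion, overlapped between the groups. It measured 10.2, 17.3 and 12.5 CPM in null libraries and 21.5, 20.4 and 8.82 CPM in heterozygous libraries, a log2 fold change of -0.34 (95% interval -1.14 to 0.45) and of -0.65 without heterozygous replicate 3. Ago2 on chromosome 15, the Argonaute able to cleave its targets and not touched by the deletion, measured 3.00, 5.59 and 5.21 CPM against 9.50, 6.34 and 2.88 CPM, a log2 fold change of -0.44 (95% interval -1.42 to 0.53) and of -0.78 without heterozygous replicate 3. In both genes that library was the lowest of all, and without it both were lower with unadjusted p-values under 0.05. Ago3 was higher at that mark in the same fit, where 12.5% of all genes passed it and 0 genes were called. Of the 15 genes of microRNA processing and silencing, 9 were higher, 6 were lower and 0 had an unadjusted p-value under 0.05. Their median log2 fold change was 0.01, beside -0.06 over all genes tested. The direction turned without heterozygous replicate 3, where 3 of the 15 were higher, 3 were lower with an unadjusted p under 0.05 (beside 9.1% of all genes in that fit), and the median was -0.22.

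Some genes outside the deletion differed in level with the number of deleted chromosomes, and an earlier fit of these data had picked them out, so that they are given here as levels. Gm10093 (ENSMUSG00000061062, chromosome 17, 78491582 to 78493025, plus strand) and Gm4864 (ENSMUSG00000112003, chromosome 12, 77623549 to 77625009, minus strand) are annotated as processed pseudogenes, copies of a spliced transcript put back into the genome. Both resemble Hdac1 (ENSMUSG00000028800, chromosome 4, 129516104 to 129542713, minus strand), which encodes a histone deacetylase. Of the 31-base words of Gm10093, 86.1% also occur in Hdac1 transcripts, and of those of Gm4864, 25.8%. A stretch of 60 bases shows how few bases part them. It covers bases 520 to 579 of the Hdac1 transcript, within the coding sequence, and the matching bases of the pseudogenes at chr17:78492017-78492076 and chr12:77624515-77624574 (GENCODE M21, GRCm38, 5′ to 3′ on the strand of each gene). Capitals mark the bases that differ from Hdac1, 5 in Gm10093 and 4 in Gm4864.
Hdac1: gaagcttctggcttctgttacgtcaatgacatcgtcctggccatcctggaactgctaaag
Gm10093: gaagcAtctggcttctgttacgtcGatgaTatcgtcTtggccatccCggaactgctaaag
Gm4864: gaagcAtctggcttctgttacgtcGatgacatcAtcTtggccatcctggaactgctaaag

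Reads from these 3 genes can be told apart only where they cover such bases, so the split between them is uncertain. Gm10093 was at 26.1, 31.9 and 29.7 CPM in null libraries and at 16.3, 14.5 and 17.4 CPM in heterozygous libraries. The groups did not overlap, and the log2 fold change was 0.87 (95% interval 0.40 to 1.33, edgeR adjusted p = 0.992). Gm4864 was at 7.21, 7.63 and 9.15 CPM against 5.22, 5.79 and 4.32 CPM, again without overlap, with a log2 fold change of 0.64 (95% interval 0.05 to 1.24). Hdac1 was at 164, 206 and 198 CPM in null libraries and at 232, 229 and 237 CPM in heterozygous libraries, all null libraries being lower. Its log2 fold change was -0.30 (95% interval -0.67 to 0.08), and the interval includes 0.

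The share of the 3 genes' summed level that went to the pseudogenes did not overlap between the groups. Gm10093 and Gm4864 together took 16.9%, 16.1% and 16.4% of the summed level in the null libraries, against 8.49%, 8.11% and 8.39% in the heterozygous libraries. Heterozygous replicate 3 was no exception here. The summed level itself was 227 ± 25.7 CPM (SD, n = 3) in the null and 254 ± 4.72 CPM (SD, n = 3) in the heterozygote, with a two-sided exact permutation p of 0.1, the smallest that 3 against 3 libraries allow. Wild-type libraries held 2.07 ± 0.538 CPM (SD, n = 4) of Gm10093, 0 counts of Gm4864 and 305 ± 1.51 CPM (SD, n = 4) of Hdac1. For all 3 genes the heterozygote stood between the wild type and the null, and libraries of neighbouring genotypes did not overlap.

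Tyr (ENSMUSG00000004651, chromosome 7, 87424771 to 87493512, minus strand) encodes tyrosinase, the enzyme that starts pigment synthesis, and had 0 counts in the wild type. It was at 2.90, 4.32 and 4.71 CPM in null libraries and at 2.27, 2.87 and 0.749 CPM in heterozygous libraries. The lowest null library lay just above the highest heterozygous library, and the log2 fold change was 1.01 (95% interval -0.03 to 2.04, edgeR adjusted p = 0.992) and 0.63 without heterozygous replicate 3. In round spermatids of the same genotypes, from 4 null and 4 heterozygous libraries, the log2 fold changes had the same signs, 1.10 for Tyr, 0.88 for Gm10093, 1.02 for Gm4864 and -0.39 for Hdac1. The difference between the fractions had adjusted p-values of 0.877 or more for each of them in the edgeR interaction test.

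Guca2b and Ttc22, named because DESeq2 called them and so chosen after their values were seen, followed another order. Guca2b (ENSMUSG00000032978, chromosome 4, 119656607 to 119658954), which encodes the gut peptide uroguanylin, had 0 counts in every null library and 24, 15 and 72 counts in the heterozygous libraries. That is 1.03, 0.743 and 4.15 CPM, and the null was at least 12.9-fold lower. The highest value was that of heterozygous replicate 3, and without it the bound was 5.80-fold. Ttc22 (ENSMUSG00000034919, chromosome 4, 106622432 to 106640189), which encodes a tetratricopeptide repeat protein, was at 0.3004, 0.153 and 0.137 CPM in the null and 3.81, 0.842 and 3.00 CPM in the heterozygote, a log2 fold change of -3.66 (95% interval -5.15 to -2.18). Wild-type spermatocytes were closer to the null in both genes, with 0.429 ± 0.218 CPM of Ttc22 (SD, n = 4) and at most 0.0521 CPM of Guca2b in any library. The heterozygous libraries thus stood above both other genotypes. In round spermatids Ttc22 measured 0.122 ± 0.0371 CPM in the null and 1.73 ± 1.34 CPM in the heterozygote, and Guca2b 0 and 0.650 ± 0.442 CPM (SD, n = 4 each).

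**Figure D2:**
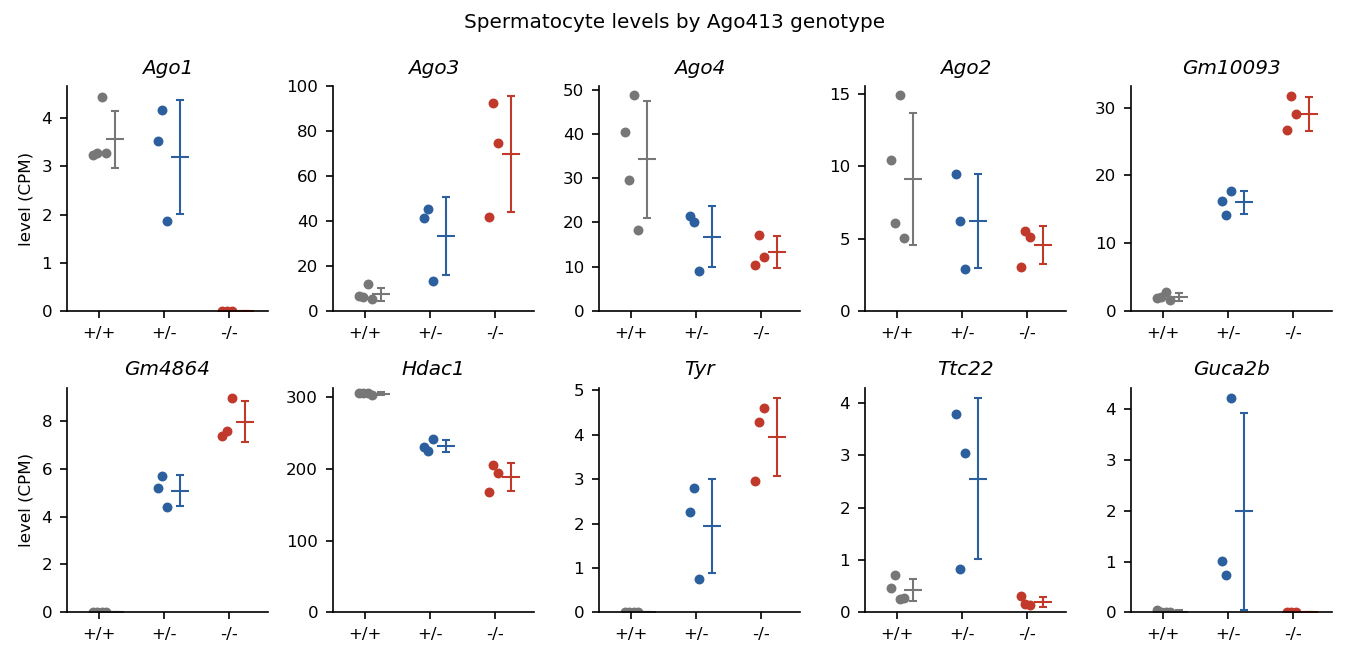
Levels in CPM (vertical axis, starting at 0) of 10 genes in wild-type (+/+, 4 libraries), heterozygous (+/-, 3 libraries) and null (-/-, 3 libraries) spermatocytes, all scaled together. Points are libraries, and the dash with its bar is the mean and SD. Ago1 is at 0 only in the null, Gm10093, Gm4864 and Tyr are highest in the null, Hdac1 is lowest there, and Ttc22 and Guca2b are highest in the heterozygote.

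Genes around the deletion were counted by distance from Ago1. Within 1 Mb, 32 genes were tested and 3 had an unadjusted p-value under 0.05 (Ago1, Ago3 and Ncdn). From 1 to 3 Mb there were 61 genes, and 1 of them, Utp11, passed that mark. The shares were 2.19% of 228 genes from 3 to 10 Mb, 2.43% of 371 genes from 10 to 30 Mb and 1.88% of 425 genes farther away, beside 2.91% of all genes tested. Ncdn, the gene of the neuronal protein neurochondrin, was at 2.50, 2.34 and 1.33 CPM in the null against 4.71, 5.30 and 2.02 CPM in the heterozygote, so that the groups overlapped. Utp11, which encodes a factor for ribosomal RNA processing, was at 14.5, 13.6 and 11.1 CPM against 16.7, 16.7 and 24.4 CPM, without overlap. An earlier fit of these data had called Phc2, Tmem35b, Trim62, Chd5 and Tmem39b, also on chromosome 4, and Ovol2 on chromosome 2 in comparisons with the wild type. Between null and heterozygote, Phc2, a Polycomb component, had a log2 fold change of 0.21 (95% interval -0.22 to 0.64), and of 0.36 without heterozygous replicate 3. The values were -0.70 for Tmem35b, -0.86 for Trim62, -0.11 for Chd5, -0.23 for Tmem39b and -0.11 for Ovol2, and none of the 6 genes had an unadjusted p-value under 0.05.

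**Figure D3:**
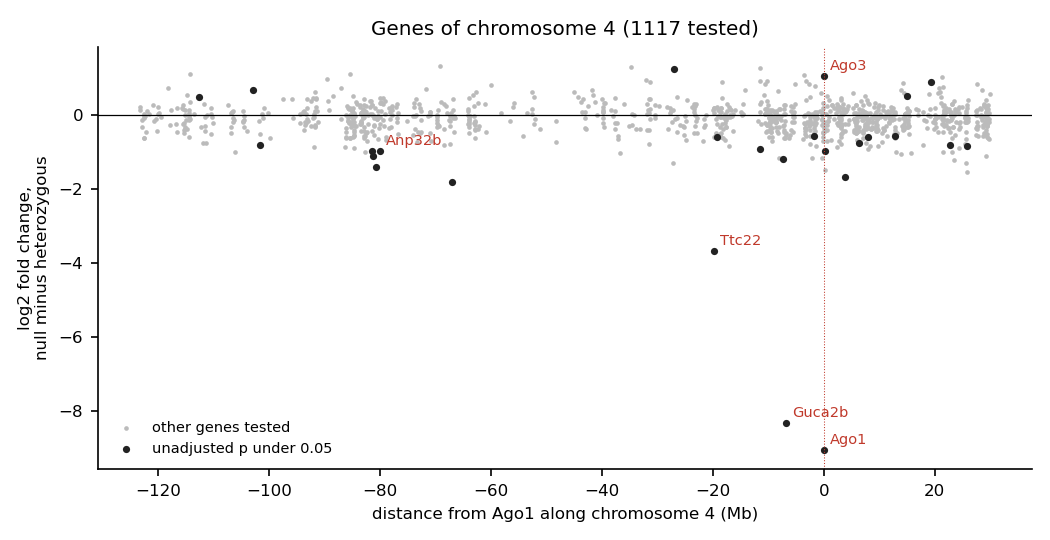
Log2 fold change, null minus heterozygous (vertical axis), of the 1117 tested genes of chromosome 4 against their distance from Ago1 in Mb (horizontal axis, negative towards the start of the chromosome). Black points have an unadjusted edgeR p-value under 0.05. Away from Ago1, Guca2b and Ttc22 no gene lies below -2.

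Among genes without overlap and with a mean of at least 1 CPM, the 10 protein-coding genes with the smallest unadjusted p-values in each direction were read individually. None passed the adjusted threshold, with edgeR adjusted p-values of 0.992 for all but Ago1. Cd24a, the gene of a small surface glycoprotein, led the higher ones. It was at 11.1, 10.8 and 11.1 CPM in null libraries and at 3.94, 5.84 and 5.42 CPM in heterozygous libraries, with a log2 fold change of 1.12 (95% interval 0.54 to 1.71). Leaving out any 1 library kept it between 0.97 and 1.24. In round spermatids it was at 9.93 ± 1.69 CPM in the null and 5.61 ± 1.01 CPM in the heterozygote (SD, n = 4 each). Parva, which encodes the focal adhesion protein alpha-parvin, was at 9.91, 9.61 and 11.2 CPM against 5.27, 5.40 and 5.24 CPM, a log2 fold change of 0.95 (95% interval 0.41 to 1.49). Heterozygous replicate 3 did not stand apart here. In round spermatids it was at 10.7 ± 1.99 CPM in the null and 6.28 ± 1.38 CPM in the heterozygote (SD, n = 4 each).

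Fsip2, the gene of a large fibrous sheath protein of the sperm tail, was the most abundant of the 20. It was at 382, 390 and 587 CPM in null libraries and at 302, 229 and 220 CPM in heterozygous libraries, a log2 fold change of 0.86 (95% interval 0.36 to 1.35). In round spermatids the levels were 101 ± 82.4 and 103 ± 24.3 CPM (SD, n = 4 each). The interaction with fraction had an unadjusted edgeR p of 0.156. Snai2, which encodes a zinc finger repressor, was at 7.26, 8.90 and 9.69 CPM against 4.49, 4.85 and 4.44 CPM. Adam22, whose product is an ADAM family protein without protease activity, was at 23.6, 17.3 and 23.8 CPM against 13.2, 12.4 and 10.8 CPM. The remaining higher genes were Gm8251, Zfp995, Hhipl1, Tax1bp3 and Filip1l, with log2 fold changes between 1.07 and 1.68.

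On the lower side, apart from Ago1 and Ttc22, several leading genes were of low abundance or are known from somatic cells. Lcn2, which encodes the iron carrier lipocalin 2, was at 1.05, 0.813 and 0.503 CPM in null libraries and 3.77, 7.77 and 1.498 CPM in heterozygous libraries. Cyp11a1, the enzyme that starts steroid synthesis in Leydig cells, was at 1.05, 0.864 and 1.23 CPM against 2.65, 6.39 and 2.02 CPM. Both were highest in heterozygous replicate 2. Cst3, the gene of the secreted protease inhibitor cystatin C, was at 16.6, 19.01 and 13.8 CPM against 28.98, 31.6 and 27.7 CPM, a log2 fold change of -0.84 (95% interval -1.32 to -0.36).

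Anp32b, which encodes a histone chaperone, was at 43.8, 42.6 and 29.3 CPM in the null and 76.6, 55.5 and 94.4 CPM in the heterozygote. Slc25a13, Zfp703 and Ccdc115 also belonged to the lower group, with log2 fold changes of -1.81, -2.62 and -1.02. For Lcn2, Slc25a13, Zfp703, Cst3, Anp32b and Ccdc115, the round spermatid log2 fold changes lay between -0.23 and 0.24, and that of Cyp11a1 was -0.27. Zfp703, like Ago1, Guca2b and Ttc22, reached 10 counts in heterozygous libraries alone, so that the filter on low counts favoured a lower null value.

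Stra8, the retinoic acid target that acts at entry into meiosis, had also been picked out by the earlier fit. It was lower in all null libraries but was not called. Its levels were 12.6, 7.47 and 8.92 CPM in null libraries against 16.01, 17.5 and 25.8 CPM in heterozygous libraries. The log2 fold change was -1.03 (95% interval -1.68 to -0.38) and -0.79 without heterozygous replicate 3. In round spermatids it was -0.19. Wild-type libraries held 4.69 ± 0.822 CPM (SD, n = 4), so that both groups of this comparison lay above them.

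Sex-linked genes were examined because the study asked about their silencing. X-linked genes made up 1.19%, 0.837% and 0.863% of counts in the null libraries and 0.919%, 0.917% and 0.949% in the heterozygous libraries. The means, 0.965 ± 0.199% and 0.928 ± 0.0181% (SD, n = 3 each), gave a two-sided exact permutation p of 1. Null replicate 1 was the highest library and the other null libraries were the lowest, and the difference of 0.0367 percentage points became -0.0779 without null replicate 1. Null replicate 1 also had the highest late round spermatid sum, at 15717 CPM against 6472 to 11349 CPM in the other libraries. The part of spermatid RNA in its X-linked share was not tested. The Y-linked share was 0.0615 ± 0.00816% in the null and 0.0593 ± 0.0198% in the heterozygote (SD, n = 3 each, exact permutation p = 0.9). That closeness rested on heterozygous replicate 3, which was at 0.0819%, while the other heterozygous libraries, at 0.0507% and 0.0451%, lay below every null library. Of 199 Y-linked genes tested, 101 were higher and the median was 0.01. Leaving that library out made 167 of 188 higher, 20 of them with an unadjusted p under 0.05 and 0 lower at that mark, and the median was 0.41. In that fit 47.8% of all genes were higher, and 3.41% were higher and 9.1% lower at that mark.

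Of 720 X-linked genes tested, 280 were higher and 440 lower. An unadjusted p-value under 0.05 was reached by 11 that were higher and 19 that were lower, 4.17% together beside 2.91% of all genes. Without heterozygous replicate 3, 362 of 704 were higher, beside 47.8% of all genes in that fit, and 43 higher and 79 lower genes passed that mark, beside 3.41% and 9.1% of all genes. The median X-linked gene lay 0.06 below the median autosomal gene on the log2 scale. Leaving out single libraries moved this to between -0.23 and 0.06, with the sign turning without null replicate 2 or 3 or heterozygous replicate 3. In the labels the heterozygous libraries carry the library numbers 18, 2 and 24 and the null libraries 54, 84 and 90. Library number and genotype therefore cannot be told apart in this comparison. The 3 heterozygous libraries and null replicate 1 carry numbers up to 60 and the other null libraries carry numbers above 60. Within the former, null replicate 1 gave a value of 0.25, with no test. The X-linked genes with the smallest unadjusted p-values were Gm648, Rbmx2, Nkap and Cited1, lower in the null, and Gm15229, higher.

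Rbmx2, a component of the spliceosome, was at 2.604, 1.47 and 2.06 CPM in the null against 3.38, 4.16 and 6.57 CPM in the heterozygote, without overlap. Nkap, which encodes a nuclear transcriptional repressor, was at 0.601, 0.407 and 0.777 CPM against 1.67, 1.29 and 1.498 CPM. Gm15229, an annotated processed pseudogene, was at 19.5, 15.8 and 21.9 CPM against 12.8, 12.4 and 11.4 CPM. Of 21 X-linked housekeeping genes, 7 were higher, 14 were lower and 0 had an unadjusted p-value under 0.05, with a median of -0.12 (-0.38 without heterozygous replicate 3 and 0.0048 without heterozygous replicate 2). Of 17 X-linked spermatid genes the counts were 6 and 11. H2al1m, a histone H2A variant, was the only one under 0.05 (log2 fold change 0.85), beside 1.11% of all genes that were higher at that mark. The median of these spermatid genes was -0.13. It was 0.29 without heterozygous replicate 3, with 10 of 16 higher, beside 47.8% of all genes in that fit. The 10 autosomal retrocopies that stand in for X-linked genes in meiosis had 4 higher and 6 lower. Among them only G6pd2 was without overlap, beside 3.96% of all genes that were higher without overlap. It was at 65.7, 66.1 and 71.02 CPM in the null against 60.2, 53.1 and 37.2 CPM. Of these retrocopies 8 of 10 were higher without heterozygous replicate 3, beside 47.8% of all genes in that fit.

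Genes of meiosis were then read by their roles. Of 21 genes of the DNA damage response that marks the sex body, 8 were higher and 13 lower, with 0 under an unadjusted p of 0.05 and 3 lower without overlap, beside 4.63% of all genes. H2afx, the histone whose phosphorylation spreads over the sex body, was at 16.5, 17.6 and 18.6 CPM in null libraries and 27.0, 19.7 and 24.4 CPM in heterozygous libraries, a log2 fold change of -0.43 (95% interval -0.91 to 0.06). Rnf8, the ubiquitin ligase that acts after it, was at 3.76, 3.15 and 3.20 CPM against 4.54, 4.26 and 5.19 CPM. Atrip, the partner of the kinase ATR, was the third. Of the 13 genes of the synaptonemal complex and meiotic cohesin and the 19 of meiotic recombination, 0 were under 0.05, with medians of -0.10 and -0.14. Over single libraries left out, these medians ranged from -0.18 to -0.003 and from -0.24 to 0.07. Without heterozygous replicate 3, 3 of the damage response genes, 3 of the recombination genes and 3 of 21 genes of the piRNA pathway were lower with an unadjusted p under 0.05, beside 9.1% of all genes in that fit. With all libraries the piRNA pathway had 7 higher and 14 lower, and Tex15, which acts in piRNA-guided silencing, was the only one under 0.05, at 142, 119 and 189 CPM in the null against 115, 102.2 and 67.2 CPM.

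The testis ADAM family, surface proteins needed for sperm maturation, was higher in 15 of 16 members, beside 42.4% of all genes. Their median was small, 0.17, and ranged from 0.14 to 0.23 when single libraries were left out. No member was under an unadjusted p of 0.05, and Adam3, Adam4 and Adam6a did not overlap, beside 3.96% of all genes that were higher without overlap. Without heterozygous replicate 3, 15 of 16 were again higher, and 3 were higher with an unadjusted p under 0.05, beside 47.8% and 3.41% of all genes in that fit. Adam3 was at 1348, 1501 and 1530 CPM in null libraries and 1223, 1247 and 1045 CPM in heterozygous libraries. Chromatin remodelers and silencing factors had 9 higher and 26 lower of 35, with a median of -0.03, but 17 were higher under upper-quartile scaling. In the fit without heterozygous replicate 3, 4 of the 35 were higher and the median was -0.17. In it 5 were lower and 1 was higher with an unadjusted p under 0.05, beside 9.1% and 3.41% of all genes. The 7 protamine and transition protein genes, the 18 acrosome genes and the 24 sperm tail genes had 0 under 0.05 and medians between -0.01 and 0.02. The protamine and transition protein median ranged from -0.31 to 0.35 when single libraries were left out. Acrosome genes were higher in 16 of 18 without heterozygous replicate 3, 3 of them with an unadjusted p under 0.05, and their median was 0.23, beside 47.8% of all genes higher and 3.41% higher at that mark. Of 13 mitochondrial mRNAs listed, the 10 tested were all lower, beside 57.6% of all genes. They had a median of -0.38 (0.08 without heterozygous replicate 1), with 0 of them under 0.05. Without heterozygous replicate 3 the median was -0.60, with 3 of 9 lower at that mark, beside 9.1% of all genes in that fit.

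**Figure D4:**
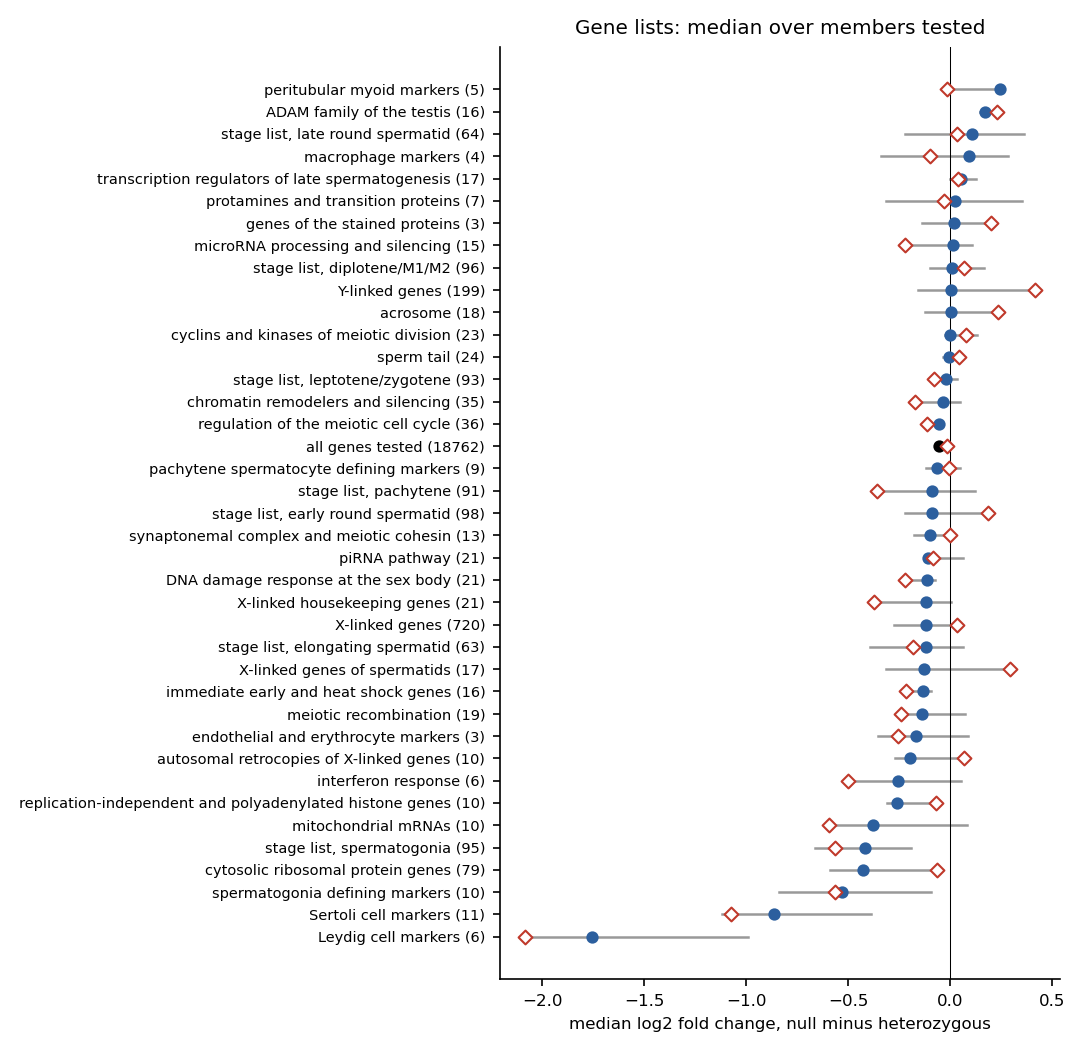
Median log2 fold change, null minus heterozygous (horizontal axis), of each gene list, with the number of members tested in brackets. Filled points use all 6 libraries (black for all genes), grey lines span the medians when each library was left out in turn, and open diamonds are the medians without heterozygous replicate 3. The Leydig and Sertoli lists lie lowest, and many lists cross 0.

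The fractions were checked against cell type markers. The 9 defining markers of pachytene spermatocytes summed to between 5832 and 7458 CPM in the 6 libraries, and none was at 0. RNA of later stages was present too. The late round spermatid list, which the study derived from single cells of wild-type mice, summed to between 6472 and 15717 CPM, and Prm2, the protamine of late spermatids, ranged from 1032 to 4382 CPM. In bulk samples, fewer cells of a type and less RNA per cell cannot be told apart.

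Leydig cell markers, genes of testosterone synthesis outside the tubules, differed most as a list. All 6 tested of 8 listed were lower in the null, 4 had an unadjusted p-value under 0.05 (beside 1.8% of all genes) and 4 did not overlap (beside 4.63%). The median log2 fold change was -1.76, between -2.08 without heterozygous replicate 3 and -0.99 without heterozygous replicate 2 when single libraries were left out. Their sum was 8.26, 5.85 and 6.08 CPM in null libraries and 15.6, 30.3 and 7.66 CPM in heterozygous libraries. Insl3, the insulin-like hormone of Leydig cells, was at 0.401, 0.305 and 0.274 CPM against 1.46, 2.62 and 0.807 CPM. It reached 10 counts in heterozygous libraries alone and so entered the test through the group where it was high. Of the 5 other genes tested, 5 were lower, 3 with an unadjusted p under 0.05. Cyp17a1, the enzyme that makes androgen precursors, was at 1.95, 1.17 and 1.97 CPM against 4.54, 9.95 and 2.19 CPM. The other 2 of the list were left untested by the filter.

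Sertoli cell markers, genes of the supporting cells of the tubule, were lower in all 11 members tested of 13 listed, beside 57.6% of all genes. Their median was -0.87, and 1 of them, Ptgds, was lower with an unadjusted p under 0.05, beside 1.8% of all genes. The median ranged from -1.12 to -0.39 when single libraries were left out, being smallest in size without heterozygous replicate 2 and -0.52 without null replicate 3. It was -0.22 for null replicate 1 alone against the heterozygous libraries. At that mark 7 were lower without heterozygous replicate 3, beside 9.1% of all genes in that fit. Their sum was 211, 191 and 110 CPM in the null and 333, 510 and 117 CPM in the heterozygote. Heterozygous replicate 3 lay within the null range, while the other heterozygous libraries lay above all null libraries. Clu, the secreted chaperone clusterin, was at 114, 118 and 66.9 CPM against 222, 350 and 60.7 CPM. Peritubular myoid, macrophage, and endothelial and erythrocyte markers had 0 under 0.05 among 5, 4 and 3 genes tested. Lcn2, like the Leydig and Sertoli sums, was higher in heterozygous replicates 1 and 2 than in the other libraries, and the part of somatic RNA in its level was not tested.

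The spermatogonia stage list was lower in 87 of 95 genes, beside 57.6% of all genes. Of its members 7 were lower and 1 higher at an unadjusted p under 0.05, beside 1.8% and 1.11% of all genes, and 10 lower genes did not overlap, beside 4.63%. The count of lower genes at the mark of 0.05 was 30 of 95 without heterozygous replicate 3, beside 9.1% of all genes in that fit. The median was -0.42, between -0.66 and -0.19 when single libraries were left out, and 0.02 for null replicate 1 alone against the heterozygous libraries. Siva1, an apoptosis regulator, was at 7.06, 4.88 and 4.02 CPM in the null against 7.83, 9.90 and 14.3 CPM, and Fbl, the nucleolar methyltransferase fibrillarin, was at 26.2, 18.5 and 17.2 CPM against 28.9, 31.6 and 31.9 CPM. The 10 defining spermatogonia markers had 7 lower, beside 57.6% of all genes, with Stra8 the only one under 0.05. Without heterozygous replicate 3, 4 of the 10 were lower at that mark, beside 9.1% of all genes in that fit. Summed, the 10 markers were at 96.1, 61.8 and 60.4 CPM in the null against 90.8, 119 and 79.5 CPM, so that null replicate 1 stood among the heterozygous libraries.

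The pachytene stage list depended on single libraries. With all 6 libraries 66 of 91 genes were lower, beside 57.6% of all genes, and the median was -0.09. This median ranged from -0.36 to 0.12 when single libraries were left out. It was -0.57 for null replicate 1 alone against the heterozygous libraries. An unadjusted p under 0.05 was reached by 6 lower genes and 1 higher gene, beside 1.8% and 1.11% of all genes. Without heterozygous replicate 3, 4 were higher, the median was -0.36, and 22 were lower with an unadjusted p under 0.05, beside 9.1% of all genes in that fit. Summed levels were 2323, 4161 and 3541 CPM in null libraries and 4608, 4077 and 2300 CPM in heterozygous libraries, so both groups held 1 library of at most 2323 CPM. Hmgb2, a chromatin protein of the list, was at 53.98, 63.7 and 45.5 CPM against 96.7, 84.2 and 72.8 CPM, a log2 fold change of -0.64 (95% interval -1.10 to -0.18). Of the 91 genes, 6 were lower without overlap, beside 4.63% of all genes.

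Round spermatid lists depended on single libraries as well. The early round spermatid list was lower in 70 of 98 genes with all libraries, beside 57.6% of all genes. Without heterozygous replicate 3, however, 96 of 98 were higher, beside 47.8% of all genes in that fit, and the median went from -0.09 to 0.18. Of the 98, 8 were then higher with an unadjusted p under 0.05, beside 3.41% of all genes. The sum of the list was 19308 CPM in heterozygous replicate 3 and 11989 to 14624 CPM in the others. The late round spermatid list had 49 of 64 higher, beside 42.4% of all genes. Its median of 0.11 ranged from -0.22 to 0.36 when single libraries were left out. The elongating spermatid list had 8 of 63 higher, beside 42.4% of all genes, and a median of -0.12 with all libraries. Under upper-quartile scaling 22 of 63 were higher, beside 48.1% of all genes. Without heterozygous replicate 3, 9 of 63 were higher, beside 47.8% of all genes in that fit, and the median was -0.19. Over single libraries left out the median ranged from -0.40 to 0.06. The diplotene/M1/M2 list had 53 of 96 higher, beside 42.4% of all genes, and a median of 0.01, between -0.10 and 0.17 over single libraries left out. Without heterozygous replicate 3 it had 69 of 96 higher, 5 of them with an unadjusted p under 0.05, beside 47.8% and 3.41% of all genes in that fit. The ribosomal protein genes were lower in 79 of 79 with all libraries, beside 57.6% of all genes, at a median of -0.43. Without heterozygous replicate 3 they had a median of -0.06 with 20 of 79 higher, beside 47.8% of all genes in that fit.

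**Figure D5:**
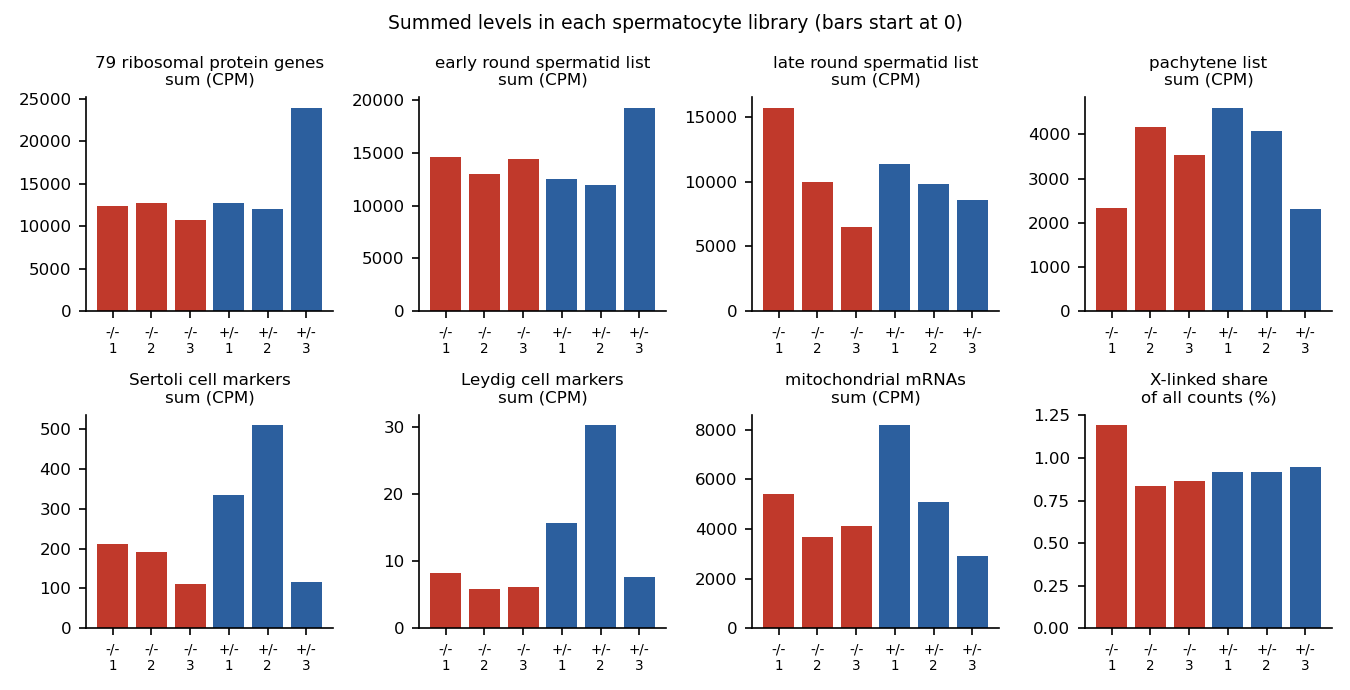
Summed levels in CPM of 7 gene lists, and the X-linked share of counts in percent, in each of the 3 null (-/-) and 3 heterozygous (+/-) spermatocyte libraries, with bars starting at 0. Heterozygous replicate 3 stands apart in ribosomal protein genes, null replicate 1 has the highest late round spermatid sum and X-linked share, and the Sertoli and Leydig marker sums are highest in heterozygous replicates 1 and 2.

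Whether the effect of losing the second chromosome differed between spermatocytes and round spermatids was tested as an interaction. With edgeR, 0 of 19884 genes (0%) were called, and 804 genes (4.04%) had an unadjusted p-value under 0.05. DESeq2 also called 0, with 973 genes at that mark. The same null against heterozygous fit in round spermatids, with 4 libraries in each group, called Ago1 alone of 18878 genes, and 1274 genes (6.75%) had an unadjusted p-value under 0.05. Filip1l, an actin-associated protein gene, was higher in null spermatocytes (2.35, 3.20 and 3.89 against 1.54, 1.39 and 0.807 CPM) and was at 1.31 ± 0.437 CPM in the null and 1.84 ± 0.465 CPM in the heterozygote in round spermatids (SD, n = 4 each). Insl3 had a log2 fold change of -2.30 in spermatocytes and 0.67 in round spermatids. Neither passed the interaction test after adjustment.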

How the data were processed

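Raw counts per gene were deposited by the authors as 1 table with no normalization. According to the labels and the methods of the study, stranded paired-end poly(A) libraries were trimmed with Trim Galore, then aligned (mm10) and counted with STAR, whose counting keeps only uniquely mapped reads. The annotation release and the strand column are not given in the sources used here. All 55536 identifiers were found in GENCODE M21 (GRCm38), which supplied symbols and 1-based coordinates.

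Counts were tested with edgeR 4.0.16 in R 4.3.3 (two-sided quasi-likelihood test), TMM scaling, 6 libraries, no covariate and Benjamini-Hochberg adjustment over all genes tested. Intervals at the 95% level use its standard errors. DESeq2 1.42.0, which the study used, and limma-voom 3.58.1 were alternatives, with other scalings, filters, single libraries left out and a replicate block. CPM are relative to kept genes after TMM scaling. Non-overlap means that all null libraries lay on one side of all heterozygous ones. A count of 0 allows up to 3 counts, which covers counting error only, since reads carry no molecular identifiers. Pairs of libraries differed by a chi-square of 9.72 or more per gene, so no library was a repeat deposit.

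Members and gene lists were chosen with earlier results of these data known. Named genes were the Argonautes and genes called between any genotypes by an earlier fit, called genes, the 10 leading protein-coding genes per direction without overlap and with a mean of at least 1 CPM, up to 4 members per list, the 5 leading X-linked genes, and genes within 3 Mb of Ago1 with an unadjusted p-value under 0.05. One gene that the rule would have described was left out and is not reported here.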

Additional observations from a re-analysis of the deposited data

Results flagged for a closer look

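In groups of 4 libraries used as reference levels, 51 gene and group combinations were examined for a library far from the other 3, and chance alone flags about 1 in 20 groups. Ago1 was at 4.45 CPM in wild-type spermatocyte replicate 4, against 3.23 to 3.28 CPM in the others. Hdac1 was at 302 CPM in wild-type spermatocyte replicate 5 against 305 CPM in the others, a gap that is wide only beside their narrow range. Hdac1 was at 149 CPM in null round spermatid replicate 2, against 139 to 140 CPM. Chd5, a chromatin remodeler gene, was at 517 CPM in null round spermatid replicate 1, against 718 to 739 CPM. Guca2b was at 0.0521 CPM in wild-type spermatocyte replicate 1 and at 0 in the other 3.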

How the results depend on the processing

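The count of called genes was 0 with edgeR and stayed 0 with RLE or upper-quartile scaling, with a minimum of 1 CPM, with the labelled outlier added back, and with each library left out in turn (0 to 0). It was 3 with DESeq2, 1 with limma-voom, 1 with wild-type libraries in the fit and 30 with no filter on low counts (5 higher, 25 lower), where the cause was not tested. With the replicate number as a block it was 1, Ago1 (edgeR adjusted p = 0.00887), and 455 genes passed the unadjusted mark of 0.05. Libraries with the same number shared only the number, since the correlations of their deviations were -0.07, 0.09 and 0.16. The count of genes without overlap was 567 with the labelled outlier added back and 2440 with no filter, and ranged from 2290 to 6083 when 1 library was left out, where fewer libraries separate more easily. The difference in X-linked share was -0.0150 percentage points with the labelled outlier added back and ranged from -0.0779 to 0.1005 when 1 library was left out. The X-linked median relative to autosomal genes was 0.25 for library numbers up to 60. It ranged from -0.23 to 0.06 when 1 library was left out. The interaction with fraction gave 0 calls in all 4 fits, including the one with consecutive library numbers as pairs. Of 170 named genes, all kept their sign under DESeq2, limma-voom, both other scalings and the block, 153 of 164 did without heterozygous replicate 3, and 155 of 170 did for library numbers up to 60. Ago1 was not tested when a heterozygous library was left out, since too few libraries then held 10 counts.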

Other observations

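Gm1821 and Gm8797, chosen after their values were seen, were the abundant genes with the widest spread inside a genotype. Gm1821, annotated as a transcribed processed pseudogene on chromosome 14, was at 1495, 48.4 and 794 CPM in null libraries and at 33.6, 514 and 27.8 CPM in heterozygous libraries. Gm8797 on chromosome 3 was at 369, 7.58 and 185 CPM in null libraries and at 5.14, 112 and 3.86 CPM in heterozygous libraries. The same 3 libraries, null replicates 1 and 3 and heterozygous replicate 2, were high for both genes. The log2 fold changes of 2.02 and 2.22 had unadjusted edgeR p-values of 0.128 and 0.131. With no filter on low counts, edgeR called both, with log2 fold changes of 2.07 and 2.26 and adjusted p-values of 9.02e-17 and 1.25e-16, although the libraries of the groups overlapped.

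Gsdmc, which encodes a pore-forming gasdermin and was likewise chosen after its values were seen, had the largest log2 fold change above 0 of all genes tested. It was at 0.601, 0.508 and 0.915 CPM in null libraries and at 0.0428, 0 and 0.115 CPM in heterozygous libraries, below 1 CPM in every library. It reached 10 counts in null libraries alone, so that the filter on low counts favoured a higher null value. Its log2 fold change of 3.61 had an edgeR adjusted p-value of 0.992.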
